A study of Mus musculus with 4 samples.

Results

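The genes described here encode the proteins that carry iron to cells, take it up, store it, release it and sense it: Trf, Tfrc, Slc11a2, Fth1, Ftl1, Slc40a1, Heph, Aco1 and Ireb2. They were chosen by name, as 9 rows of a table of 35869 gene rows, and all 9 were found. RNA was sequenced from oligodendrocytes, the glia that wrap axons of brain and spinal cord in myelin, that were sorted from mouse cortex at postnatal day 5 as cells carrying both O4 and GalC, surface lipids of late precursors and young oligodendrocytes. Of the 4 libraries, 2 were wild type (WT) and 2 came from mice carrying a Zfp488 knock-in allele on both chromosomes (KI/KI), a genotype labelled Zfp488 KO (KO). The labels name no other allele, and the sources used here do not give the construct, the strain or the sex of the mice. Whether replicate libraries stem from different mice is not stated, so the spread behind the p-values is between libraries and may be technical. In the limma fit used below, the spread of each gene was also drawn towards that of other genes of similar level.

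Iron travels in blood and brain fluid bound to transferrin. The complex is taken in by the transferrin receptor, iron leaves the endosome through a divalent metal transporter, and what is not used is held in ferritin, a shell of heavy and light chains, or leaves the cell through ferroportin with the help of a ferroxidase. Oligodendrocytes are the iron-rich cells of the brain, and they make transferrin themselves, which is used as a marker of their maturation. Cells adjust these genes largely after transcription: when iron is scarce, the iron regulatory proteins bind a hairpin called the iron-responsive element (IRE), which blocks translation when it lies in a 5′ UTR and stabilises the mRNA when it lies in a 3′ UTR. RNA levels of the ferritins and ferroportin therefore show only part of their regulation.

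The IRE sites are shown because they are the sequence that this switch reads. The coding transcripts of GENCODE M21 (GRCm38, the assembly that mm10 names) were searched on the transcript strand for CNNNNNCAGTGN, a bulged C, 5 bases and the 6-base loop, followed by 5 bases that pair with the 5 before the loop (G with T allowed). The pattern was found in a 5′ UTR of 31 of 20045 genes (0.155%) and in a 3′ UTR of 128 of 20831 genes (0.614%). Among the members it was found in 1 place each in the 5′ UTRs of Fth1, Ftl1 and Slc40a1 and in 4 places in the 3′ UTR of Tfrc. An element with another loop or an unpaired base would be missed, so these are counts of matches and not of all elements. The 30-base sites read as follows, 5′ to 3′, with the bulged C and the loop in capitals.
Fth1, chr19:9982731-9982760, plus strand: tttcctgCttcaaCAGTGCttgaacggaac
Ftl1, chr7:45459779-45459808, minus strand: tgtcttgCttcaaCAGTGTttgaacggaac
Slc40a1, chr1:45925465-45925494, minus strand: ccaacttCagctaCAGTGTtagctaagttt
Tfrc site 1, chr16:32631218-32631247, plus strand: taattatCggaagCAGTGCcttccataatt
Tfrc site 2, chr16:32631597-32631626, plus strand: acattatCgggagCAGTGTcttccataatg
Tfrc site 3, chr16:32631662-32631691, plus strand: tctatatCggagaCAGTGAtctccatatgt
Tfrc site 4, chr16:32631709-32631738, plus strand: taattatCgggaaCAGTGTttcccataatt

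The ferritin sites were the same at 27 of 30 bases, whereas that of Slc40a1 shared 13 of 30 with each of them. Within Tfrc, sites 1 and 4 and sites 1 and 2 shared 25 of 30 bases each, sites 2 and 4 shared 24, and site 3 shared 18 to 20 with the others. The ferritin and ferroportin sites begin 77 to 89 bases from the transcript start, and those of Tfrc begin between 3314 and 3805 in a transcript of 4890 bases whose coding sequence ends at 2432. A shorter coding transcript of Tfrc, of 1860 bases, has a 3′ UTR of 235 bases without a match, and the deposited values, 1 per gene, do not separate the transcripts. The pattern was not found in the UTRs of Trf, Slc11a2, Aco1, Ireb2 or Heph, which says only that these letters with full pairing are not there. Slc11a2 is known to be made with and without an IRE.

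**Figure D1:**
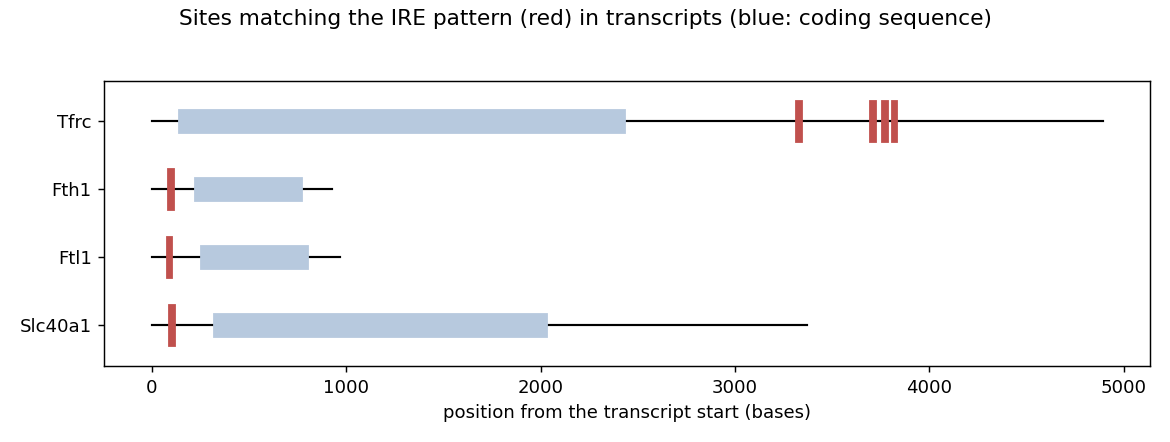
Transcripts of Tfrc, Fth1, Ftl1 and Slc40a1 drawn to scale, with position from the transcript start in bases on the horizontal axis, the coding sequence in blue and the 30-base sites that match the pattern in red. The 3 single sites lie ahead of the coding sequence, and the 4 sites of Tfrc lie behind it.

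Values are FPKM, fragments normalised to transcript length and to the mapped total, which sum to between 311846 and 341145 per library. The sources used here give no read totals. Low values gathered at steps, and from these 1 FPKM on a transcript of 1 kb stood for roughly 36.8 to 43.4 reads. The step was sought only within a preset range, so these figures cannot show whether the libraries were of similar depth. Zfp488 itself was at 6.61 and 5.29 FPKM in WT against 4.82 and 4.11 in KO, a log2 difference of -0.34 (SE 0.33; limma adjusted p = 0.95), and since the allele's design is not given, this checks the labels only weakly. Olig2, a factor that defines the lineage, was at 390.2 to 454.1 FPKM in the 4 libraries. Summed markers of several other cell types were higher in the libraries numbered 2 than in those numbered 1. The endothelial and pericyte list (10 genes) summed to 42.0 and 40.3 FPKM in WT 2 and KO 2, against 0.455 and 0.622 in WT 1 and KO 1. Most of it in WT 2 and KO 2 was Cldn5 (26.8 and 26.3) and Rgs5 (9.90 and 9.38), and Pecam1 was at 0.002 FPKM or less in every library. In the same order, the choroid plexus list (5 genes) summed to 95.4 and 122.5 against 4.99 and 12.6, nearly all of it Ttr. The microglia list (10 genes) summed to 153.2 and 170.1 against 66.8 and 58.2. Red cell transcripts, nearly all globin, summed to 483 to 567.1 FPKM in the libraries numbered 1 and to 898.2 to 964.4 in those numbered 2.

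The comparison asks how transcripts of these cells differ with the Zfp488 genotype, in a study of the timing of myelination. Rows were tested where 2 or more libraries reached 1 FPKM, 10754 in all and 8 of the 9 members, as differences of log2(FPKM + 1), a scale that understates the change of low genes. None passed: 0 of 10754 rows (0%) had a limma adjusted p under 0.05 (smallest 0.859), and 608 (5.65%) had an unadjusted p under 0.05, 2 of them members, Trf and Ftl1. Among the tested members, the KO libraries were both lower than either WT library for 3, Trf, Fth1 and Ftl1, and above them for 2, Aco1 and Ireb2. Over all tested rows these patterns held for 18.3% and 16.6%, so the counts of members are too small to be set against them. The median log2 difference of the 8 members was 0.11, against 0.0001 over all tested rows, and its sign turned in 4 of 13 alternatives.

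By level, the members ran from among the most abundant rows to values near 0. Ferritin made up 96.5% to 96.9% of the summed FPKM of the 9 genes in each library, and by itself 0.43% to 0.502% of the FPKM of all rows. Ftl1 was above Fth1 in 4 of 4 libraries, Fth1 above Trf in 4 of 4, Aco1 above Tfrc in 4 of 4 and Tfrc above Slc11a2 in 4 of 4. The order of the remaining neighbours changed between libraries. Trf was above Aco1 in 1 of 4, Slc11a2 above Ireb2 in 3 of 4 and Ireb2 above Slc40a1 in 3 of 4. Heph was the lowest in 3 of 4 libraries, the exception being KO 1, where Slc40a1 was lower.

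**Figure D2:**
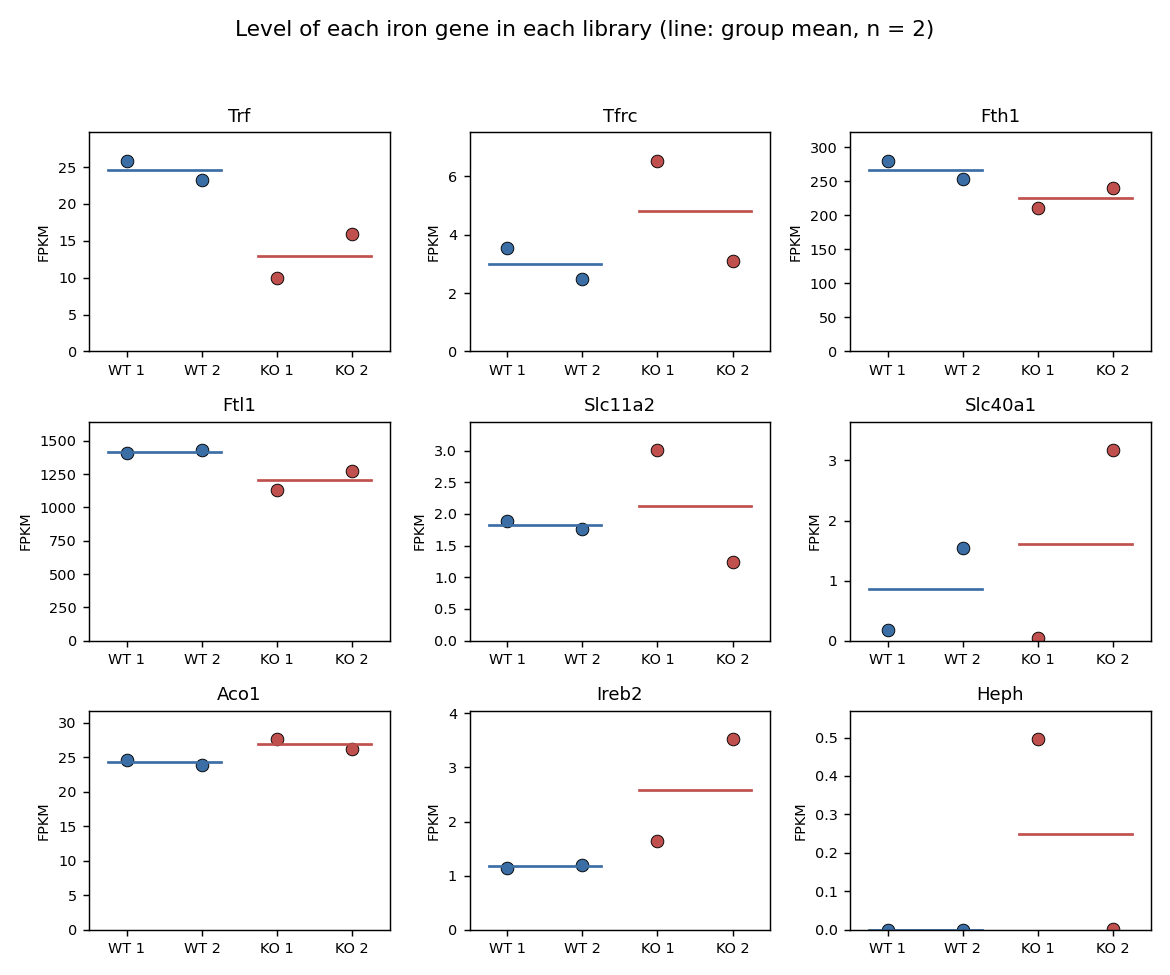
FPKM of each of the 9 genes (vertical axes from 0, each with its own scale) in WT 1, WT 2, KO 1 and KO 2, with a line at each group's mean (n = 2). The KO points of Trf, Fth1 and Ftl1 lie below the WT points, those of Aco1 and Ireb2 lie above, and Slc40a1 is high in the libraries numbered 2.

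Trf, which encodes transferrin, showed the largest absolute log2 difference of the 8 tested members. It was at 25.8 and 23.3 FPKM in WT 1 and WT 2 against 9.96 and 16.0 in KO 1 and KO 2. The groups did not overlap, and the KO mean was 52.8% of the WT mean. The difference was -0.90 on the log2 scale (SE 0.31, 95% interval -1.71 to -0.098), which did not pass over all rows (limma, unadjusted p = 0.0345, adjusted p = 0.859). It lay between -1.22, without KO replicate 2, and -0.59, without KO replicate 1. In bulk RNA, fewer cells of a type and less RNA per cell cannot be told apart.

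Genes of compact and mature myelin, set beside Trf because they mark the same stage, summed to 808.8 and 504.3 FPKM in WT and to 530.6 and 250 FPKM in KO (10 genes, of which Mal was at 0 in all libraries). Both KO libraries were lower for 6 of the 9 tested myelin genes and higher for 0, with a median log2 difference of -0.97. Over all tested rows 18.3% were lower in both KO libraries and 16.6% higher. No test set the counts of these short lists against those shares. Of 6 precursor genes 4 were higher in both KO libraries and 0 lower (median 0.43), among them Pdgfra, a growth factor receptor of precursors, at 18.5 and 26.8 FPKM in WT against 40.2 and 42.5 in KO. Of 3 tested neuronal genes 2 were higher in both KO libraries, Stmn2 (1.35 and 0.503 FPKM in WT against 3.67 and 6.57 in KO) and Snap25. The other, Tubb3, overlapped (10.4 and 24.2 FPKM in WT against 9.55 and 24.6 in KO). Of the untested neuronal genes, Syt1 was lower in both KO libraries (0.316 and 0.354 FPKM in WT against 0.225 and 0.251 in KO). Rbfox3, Slc17a7, Gad1 and Gad2 overlapped. None of the tested genes of these lists passed. Within KO the order was opposite: KO 2 held less than KO 1 of the myelin list, of Mbp (29.6 against 65 FPKM) and of Mog (0.758 against 5.42), but more of Trf. Ttr, a choroid plexus gene whose tissue also makes transferrin, was at 11.9 FPKM in KO 1 and 122.4 in KO 2, and at 4.97 and 94.6 in WT 1 and WT 2, where Trf was nearly level. The part of these genes in the Trf values was not tested. On the strand of Trf, the annotation has another gene model, Gm20425, that shares 2108 exonic bases with it. Gm20425 had no row under that name among the deposited values, so reads of the shared exons cannot be assigned to 1 of them.

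Tfrc, the transferrin receptor that brings the loaded complex into the cell, was low. It was at 3.54 and 2.47 FPKM in WT against 6.53 and 3.11 in KO. KO 1 stood above the other libraries and KO 2 lay between the WT values. The log2 difference was 0.49 (SE 0.44; adjusted p = 0.949 by limma). It lay between 0.050, without KO replicate 1, and 0.92, without KO replicate 2.

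Slc11a2, the divalent metal transporter that moves iron out of the endosome, was at 1.90 and 1.76 FPKM in WT against 3.01 and 1.24 in KO. The KO values lay on either side of the WT values and the log2 difference was 0.084 (SE 0.44; adjusted p = 0.995 by limma). Without KO replicate 1 it turned to -0.34. As with Tfrc, KO 1 held the highest value. An opposite-strand gene model that shares 402 exonic bases with Slc11a2, Gm5475, was listed at 0 in all 4 libraries.

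Ftl1, the light chain that helps iron to mineralise inside the shell, was among the most abundant transcripts, at ranks 4, 5, 9 and 6 of all rows in WT 1, WT 2, KO 1 and KO 2. It was at 1410 and 1430 FPKM in WT against 1131 and 1274 in KO. Fth1, the heavy chain that oxidises iron as it enters, was at 280.2 and 254.1 FPKM in WT against 210.6 and 241.0 in KO. Both chains were lower in both KO libraries, with means at 84.6% and 84.5% of WT.

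The log2 differences were -0.24 for Ftl1 (SE 0.089, unadjusted p = 0.0416, adjusted p = 0.87 by limma) and -0.24 for Fth1 (SE 0.14, unadjusted p = 0.14, adjusted p = 0.914 by limma). Log2 differences ran with level over the whole table, and the smoothed trend stood at -0.21 at the level of Ftl1 and at -0.15 at that of Fth1. Once it was taken out, the differences were -0.036 and -0.090. With the trend with transcript length also taken out, they were 0.024 and -0.13. Quantile normalization left Ftl1 at -0.25 and brought Fth1 to -0.078. The sign of Ftl1 thus depended on the correction. Without KO replicate 1 the differences were -0.16 for Ftl1 and -0.15 for Fth1, without KO replicate 2 they were -0.33 and -0.34, and with values rescaled to TPM they were -0.14 for each. Transcripts of 7 other genes in GENCODE matched that of Ftl1 at 90% identity or more, and those of 1 other gene matched Fth1. Under their GENCODE names, none of these copies had a row among the deposited values. How reads that fit several copies were counted is not stated, so both levels are uncertain to that extent.

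The ratio between the ferritin chains differed less between the genotypes than between the WT libraries. The log2 ratio of Fth1 to Ftl1 was -2.33 and -2.49 in WT and -2.42 and -2.40 in KO, so Ftl1 stood 5.02 to 5.61 times above Fth1 in every library. Both KO ratios lay between the WT ratios, and the group means differed by -0.0005 (exact two-sided permutation test, p = 1 over 6 assignments). This ratio is taken within a library, so the scaling of the libraries cancels. A p of 0.33 is the smallest that 2 libraries against 2 allow.

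The ratio of Tfrc to Fth1, receptor to store, was -5.95 and -6.20 in WT and -4.81 and -5.88 in KO on the log2 scale. Both KO libraries were higher, by 0.73 on average (exact permutation test, p = 0.33). KO 2 exceeded WT 1 by little, and without KO replicate 1 the mean difference was 0.20, so its size rested on KO 1.

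**Figure D3:**
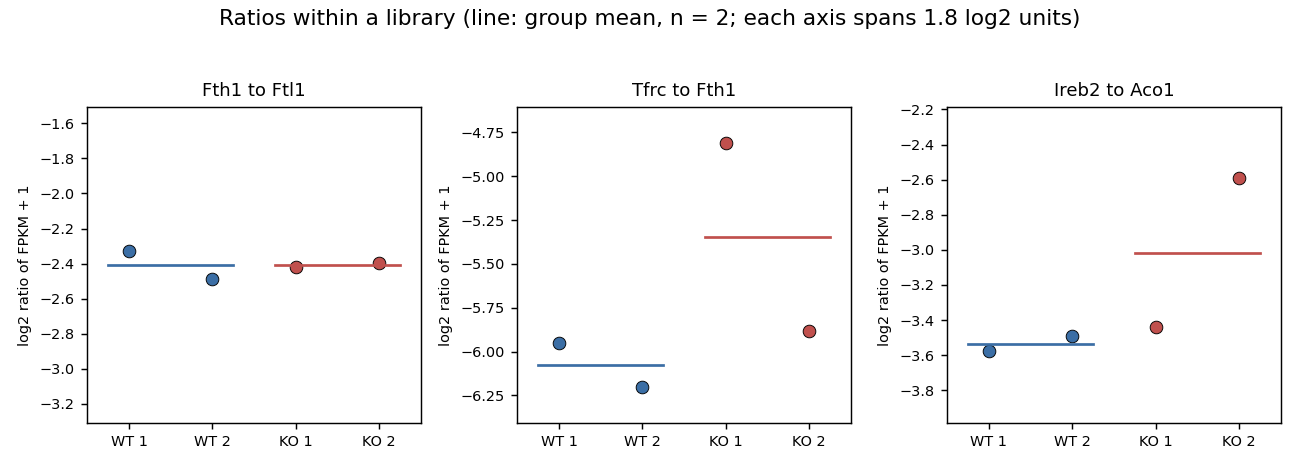
Log2 ratios of FPKM + 1 within each library for Fth1 to Ftl1, Tfrc to Fth1 and Ireb2 to Aco1, with a line at each group's mean (n = 2) and axes of equal span. The ferritin ratio stays between -2.49 and -2.33, and each of the other ratios has 1 KO library far above the rest.

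Slc40a1 encodes ferroportin, the iron exporter. It was at 0.171 and 1.55 FPKM in WT 1 and WT 2 against 0.043 and 3.17 in KO 1 and KO 2, roughly 20, 230, 5.8 and 420 reads. The libraries numbered 2 were high and those numbered 1 were low in both genotypes, and the groups overlapped. The log2 difference was 0.27 (SE 0.81; adjusted p = 0.994 by limma), and it was -0.73 without KO replicate 2 and 1.27 without KO replicate 1. It passed the filter through 1 library of each genotype.

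In both genotypes the library numbered 2 was higher for 8 of 10 microglial, 6 of 10 endothelial and pericyte, 6 of 7 astrocyte and 2 of 5 choroid plexus genes, as it was for Slc40a1. The same held for 5 of 8 neuronal, 4 of 6 erythroid, 2 of 6 precursor and 0 of 10 myelin genes. The share over all rows was not computed, so these counts cannot be set against it. Deviations from the group means of libraries with the same number correlated at 0.289 over 10754 rows. Tyrobp, a microglial adaptor, was at 5.34 and 20.1 FPKM in WT against 1.54 and 24.7 in KO, and Cldn5, a tight junction gene of brain endothelium, at 0 and 26.8 and at 0.035 and 26.3. Other markers did not follow. Tmem119, a microglial gene, was at 0.038 FPKM or less in WT and at 2.24 and 0.024 in KO, C1qa was at 10.4 and 9.46 FPKM in KO, and Pecam1 was at 0.002 FPKM or less in every library. The part of these cells in the Slc40a1 values was not tested.

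**Figure D4:**
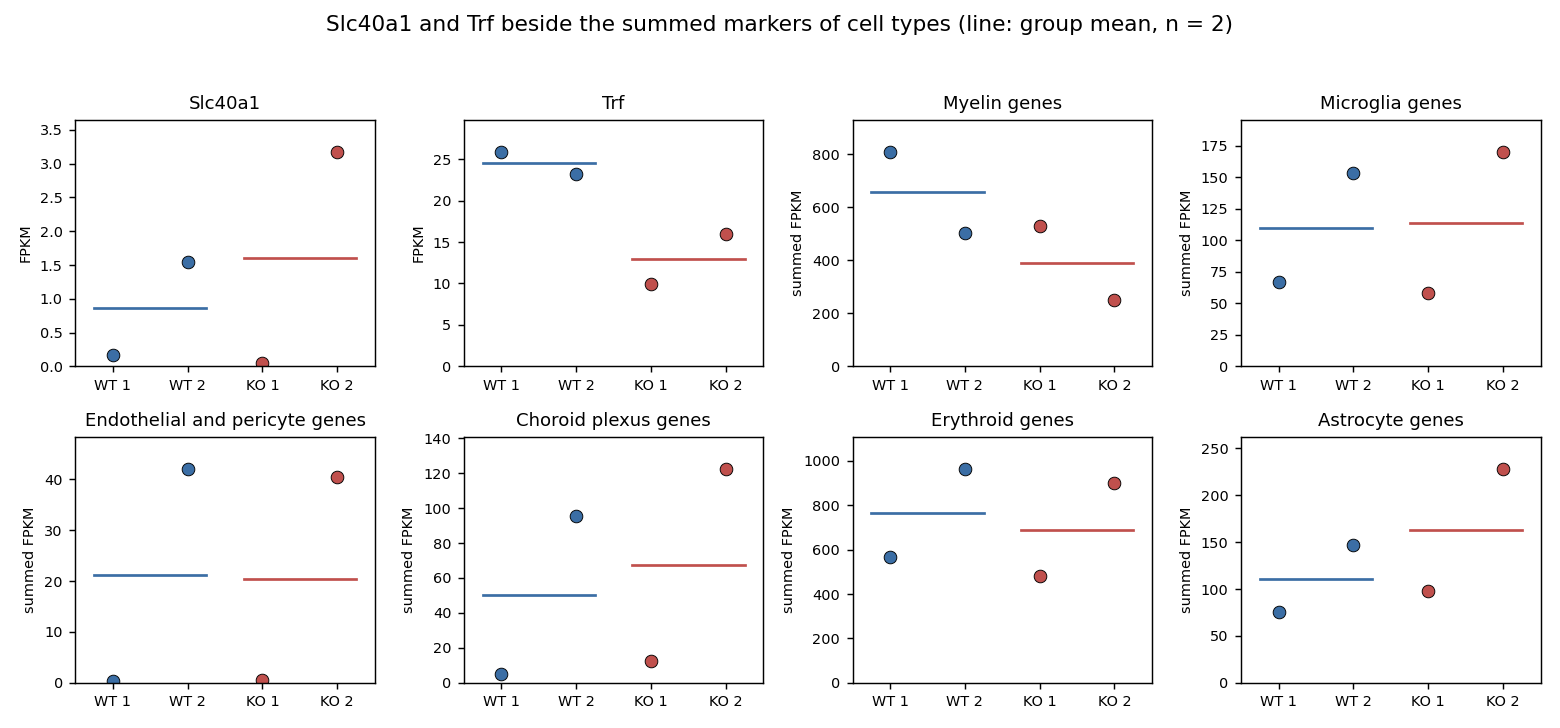
FPKM of Slc40a1 and Trf, and the summed FPKM of the myelin, microglia, endothelial and pericyte, choroid plexus, erythroid and astrocyte lists, in each library, with a line at each group's mean (n = 2) and axes from 0. Slc40a1 and the 5 lists of other cell types are higher in WT 2 and KO 2 than in WT 1 and KO 1, while the myelin list is lower there, and Trf is lower in WT 2 and higher in KO 2.

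Heph encodes hephaestin, a membrane ferroxidase that works with ferroportin. It was listed at 0 in both WT libraries, at 0.495 FPKM in KO 1 and at 0.001 in KO 2, and it was not tested. The KO 1 value stood for about 90 reads on the longest coding transcript, whereas the KO 2 value was less than 1 read. A 0 in this table can be a failed estimate, so no fold is given. Cp, the related ferroxidase ceruloplasmin, was at 0.817 and 0.777 FPKM in WT against 2.28 and 1.38 in KO, a log2 difference of 0.64 (SE 0.38; adjusted p = 0.915 by limma).

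The iron regulatory proteins were unequal in level. Aco1, which serves as a cytosolic aconitase when it holds an iron-sulfur cluster and as an IRE-binding protein when it does not, was at 24.7 and 23.8 FPKM in WT against 27.6 and 26.2 in KO. The spread within each group was small and both KO libraries were higher, by 0.14 on the log2 scale (SE 0.22; adjusted p = 0.984 by limma). Ireb2, which binds the same hairpins and is controlled by its breakdown when iron is plentiful, was at 1.147 and 1.205 FPKM in WT against 1.64 and 3.52 in KO. Both KO libraries were higher, KO 2 by far the most, and the log2 difference was 0.66 (SE 0.43; adjusted p = 0.925 by limma). It lay between 0.28, without KO replicate 2, and 1.05, without KO replicate 1.

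The log2 ratio of Ireb2 to Aco1 was -3.58 and -3.49 in WT and -3.44 and -2.59 in KO. Both KO libraries were higher, by 0.52 on average (exact permutation test, p = 0.33), and by 0.098 without KO replicate 2. Fbxl5, the ubiquitin ligase subunit that marks the Ireb2 protein for breakdown, was at 23.7 and 24.0 FPKM in WT against 17.9 and 22.3 in KO. Its log2 difference was -0.249 (SE 0.245, limma adjusted p = 0.95), and a link to the Ireb2 values was not tested.

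Other genes with the same IRE pattern were read in these libraries too. Without the members, 16 genes with a match in the 5′ UTR were tested, of which both KO libraries were higher for 4 and lower for 3, with a median log2 difference of 0.060. Of 72 tested genes with a match in the 3′ UTR, 18 were higher and 6 lower, with a median of 0.022. Over all tested rows 16.6% were higher and 18.3% lower, with a median of 0.0001. None passed, and no test of these counts was made.

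The wider pathway was read through 65 further genes for uptake, storage, export, heme and iron-sulfur clusters, of which 63 were in the table and 48 were tested. None passed in either direction. Both KO libraries were lower for 13 of the 48 (27.1%) and higher for 6 (12.5%), with a median log2 difference of -0.16, against 18.3%, 16.6% and 0.0001 over all tested rows. The median stayed below 0 in all 13 alternatives, between -0.18 and, without WT replicate 2, -0.046, and was -0.11 with the trends with length and level taken out.

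Of the uptake genes, 5 of 15 were tested, with 1 higher and 0 lower, where 16.6% of all tested rows were higher and 18.3% lower. Steap1, a metalloreductase, was at 3.20 and 0 FPKM in WT against 3.63 and 4.89 in KO, so WT 2 alone was at 0. Exoc6, a subunit of the exocyst that recycles the receptor, was at 3.36 and 0.743 FPKM in WT against 5.18 and 2.21 in KO. Mcoln1, a lysosomal channel that passes iron, was at 60.8 and 82.3 FPKM in WT against 63.2 and 46.2 in KO, with overlapping groups.

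Of the storage and regulation genes, 6 of 7 were tested, with 1 higher and 2 lower. Over all tested rows 16.6% were higher and 18.3% lower, and so short a list cannot be set against these shares. Pcbp1, a chaperone that hands iron to ferritin, was at 279.7 and 283 FPKM in WT against 216.3 and 206.8 in KO. Its groups did not overlap, and the log2 difference of -0.41 (SE 0.12) had an unadjusted p of 0.0178 and an adjusted p of 0.859 by limma. The trend with level, which stood at -0.15 at the similar level of Fth1, was not taken out of this value. Ncoa4, the receptor that delivers ferritin to lysosomes, was at 5.48 and 9.43 FPKM in WT against 10.3 and 8.17 in KO, with overlapping groups. Cul1, a scaffold of the ligase that holds Fbxl5, was at 12.6 FPKM in both WT libraries and at 15.0 and 15.7 in KO.

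The heme list had 14 tested genes, 5 lower and 2 higher, with a median of -0.19, where 18.3% of all tested rows were lower and 16.6% higher. Among the lower ones were Alad and Cpox, enzymes of heme synthesis, Blvra, a biliverdin reductase of heme breakdown, and Slc48a1, a heme transporter. Alad, the second enzyme, was at 39.7 and 33.0 FPKM in WT against 24.9 and 22.2 in KO (log2 difference -0.60, SE 0.23, limma unadjusted p = 0.0485, adjusted p = 0.876). Cpox was at 29.5 and 34 FPKM in WT against 22.4 and 18.1 in KO (-0.63, SE 0.24, adjusted p = 0.882). Alas2, the erythroid form of the first enzyme, was at 0 and 0.974 FPKM in WT against 2.0 and 1.09 in KO.

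Among 21 tested genes of iron-sulfur clusters and mitochondrial iron, both KO libraries were lower for 6 and higher for 1, with a median of -0.18, beside the same shares over all rows. Nubp2, a cytosolic assembly scaffold, was at 17.8 and 17.4 FPKM in WT against 12.8 and 11.5 in KO (-0.50, SE 0.25, limma adjusted p = 0.914). Hscb, a co-chaperone of cluster transfer, was at 8.0 and 2.19 FPKM in WT against 1.52 and 1.94 in KO, so that WT 1 alone was high. Nfs1, the desulfurase that supplies sulfur, was at 7.60 and 15.0 FPKM in WT against 13 and 21.8 in KO, with overlapping groups. Of the export list, 2 of 5 were tested, Cp and Abcg2, a heme and drug exporter at 6.20 to 6.73 FPKM in all libraries, and Hamp, which encodes hepcidin, was at 0 in all 4.

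**Figure D5:**
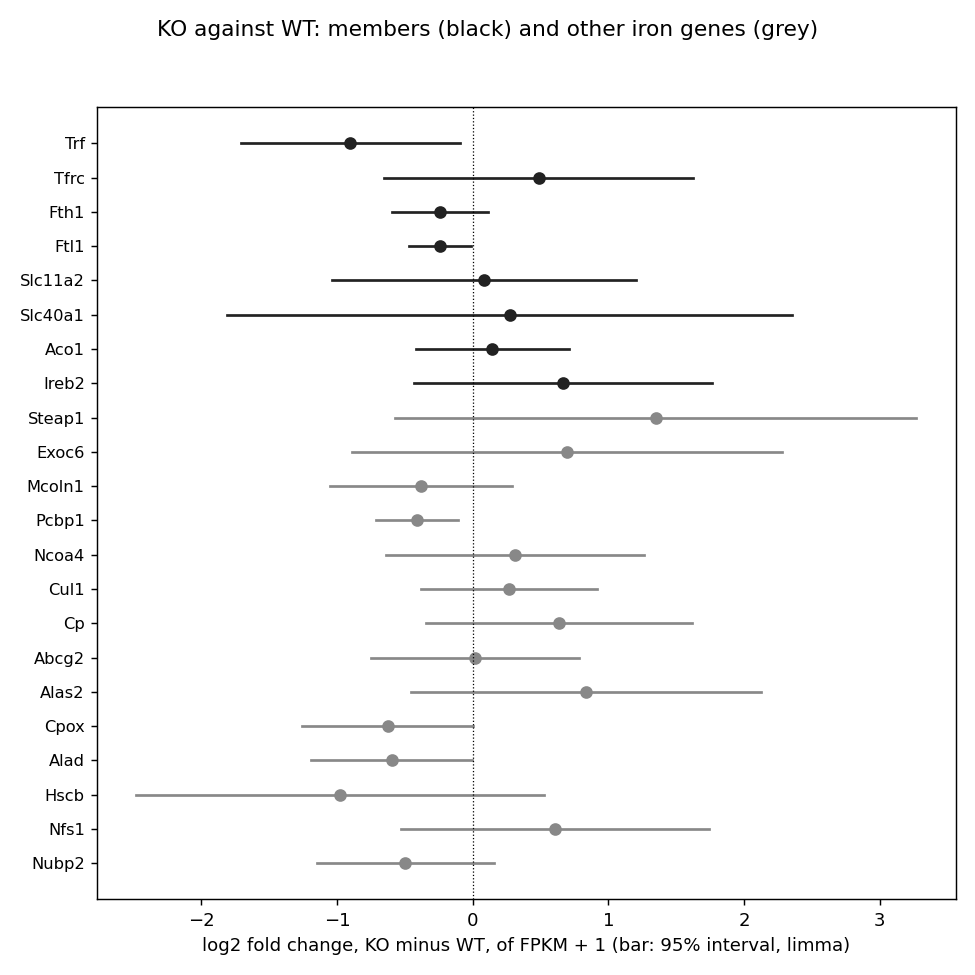
Log2 fold change of FPKM + 1, KO minus WT, for the 8 tested members (black) and 14 further iron genes chosen by a rule (grey), with bars for the 95% interval from limma. The intervals of Trf, Ftl1, Pcbp1 and Alad leave out 0 before adjustment over all rows, and that of Slc40a1 is the widest among the members.

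The genes nearest to a member in pattern were sought among 5958 tested genes with a mean of at least 5 FPKM, by Euclidean distance between log2 values centred on the mean of the 4 libraries. With 4 libraries many genes fit closely, so this is a description. Nearest to Trf lay Bnip1, a SNARE protein, at a distance of 0.074 (23.4, 20.0, 8.57 and 13.3 FPKM in WT 1, WT 2, KO 1 and KO 2), then Acy1 (0.17) and Pyurf (0.173). No myelin gene was among these 3, but 3 of 5958 genes are too few for this to bear on the myelin list. Nearest to Tfrc were Prex1, an exchange factor for Rac (0.123; 10.1, 7.90, 19.4 and 10.2 FPKM), Gmppb and the microRNA row Mir7004. Nearest to Fth1 were 1810037I17Rik (0.0257), Uqcr11, a small subunit of respiratory complex III (0.0276; 489.9, 436.0, 368.4 and 413.3 FPKM), and Gm26596.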

How the data were processed

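The authors deposited FPKM, with a column for each library. The submitters' processing notes name TopHat, without a version, and mm10. The sources used here do not give the quantification program, annotation, strand setting or filters. Each column was mapped to a library by its title, and groups came from the genotype label.

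FPKM are not counts, so log2(FPKM + 1) was fitted with limma 3.58.1 in R 4.3.3 (genotype alone, variances moderated with a trend on level, Benjamini-Hochberg adjustment over 10754 rows, two-sided, threshold 0.05), a fit also tested on simulated data. With 2 libraries per group, SDs and SEs are imprecise. Gene loci, transcripts and UTRs came from GENCODE M21, where a length was found for 93.7% of tested rows. Near-identical transcripts were sought with blastn 2.17.0 (at least 90% identity over at least 80% of the shorter transcript and 300 bases). Approximate reads come from the modal step of low values, sought within a preset range, and the length of 1 coding transcript. They carry no interval.

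The members and gene lists were chosen with earlier results of these data known. By rule, named genes were all 9 members, up to 3 tested genes of each further iron list with the largest absolute difference, and the 3 nearest to Trf, Tfrc and Fth1. Outside this rule, Fbxl5, Blvra, Slc48a1, Hamp, Zfp488, gene models that overlap members and markers were added. Some genes of the lists are not reported here. Alternatives were other pseudocounts, filters, scalings, trend removal, a replicate block and leaving out each library.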

Additional observations from a re-analysis of the deposited data

How the results depend on the processing

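No row passed in any of the 11 alternatives that gave a test (0 calls in each; smallest adjusted p 0.413), and at an unadjusted p under 0.05 there were 608. The signs of Trf, Tfrc, Fth1, Aco1 and Ireb2 held in every alternative run. Trends were removed without a new test. The removal of both length and level trends was an alternative added once the data had been seen.

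The median of the iron members, 0.11, was 0.058 with a pseudocount of 0.1, 0.21 with values rescaled to TPM, 0.056 after quantile normalization and 0.042 with both trends removed. With a filter at 5 FPKM, which keeps 4 members, it was -0.24. It was -0.028 without WT replicate 1, -0.048 without KO replicate 1 and -0.075 without KO replicate 2, and over libraries left out it lay between -0.075 and 0.085. The median of the wider iron genes, -0.16, was -0.077 with no filter, -0.075 as TPM, -0.098 after quantile normalization, -0.11 with the level trend removed and -0.11 with both trends removed (-0.109 and -0.112). Over libraries left out it lay between -0.116 and -0.046.

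Slc11a2 turned to -0.012 with the level trend removed, -0.098 with both removed and -0.34 without KO replicate 1, and over libraries left out it lay between -0.335 and 0.502. Ftl1 was 0.024 with both trends removed. Slc40a1 was -0.29 without WT replicate 1 and -0.73 without KO replicate 2, and at most 1.272 over libraries left out. The ratio of Fth1 to Ftl1 differed by 0.08 without WT replicate 1 and 0.011 without KO replicate 1, and by -0.081 to 0.08 over all libraries left out, where that of Tfrc to Fth1 lay between 0.20 and 1.26 and that of Ireb2 to Aco1 between 0.098 and 0.94. Where a library was left out, the lone library of its group was taken to vary like the others, and the cause of each turn was not tested.

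The labels number the libraries 1 and 2 in both groups without saying that a number marks a shared source. Deviations from the group means of libraries with the same number correlated at 0.289 over 10754 rows. With a replicate block, 0 rows passed.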
